A study of Oryza sativa Indica Group with 36 samples.

Results

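The genes described here are the annotated rice genes whose mean level was highest, relative to every other treatment, in the treatments labelled as the third day of cold of the 2 cultivars of the study. The FPKM values (fragment counts divided by gene length and by library total, a level that is comparable between genes of different length) of the 3 libraries of each treatment were averaged. A score was then taken as the log2 ratio of the lower of the means of AT3 and BT3, the treatments on the third cold day, to the highest of the other 10 treatment means, with 1 FPKM added to each. Of 40745 annotated genes, 2295 had a score above 0, and the 150 highest scores form the list. These FPKM values chose the genes, so every comparison of the third cold day with another treatment is given below as a description and without a test.

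The plants were hydroponically grown indica rice seedlings at the four-leaf stage, and RNA came from their aerial parts, stems and leaves together. The cold-sensitive cultivar 9311 (labelled as wild type, letter A) gave 15 libraries and the cold-tolerant near-isogenic line DC907 (letter B) gave 21, for 36 in all. ACK and BCK are plants that were not cooled. AT1 and BT1 had 1 day at 8 ℃, and AT3 and BT3 had 3 days. AT1H1 and BT1H1, and AT3H1 and BT3H1, were moved back to room temperature for 1 day after the short or the long cold. BT1H3 and BT3H3 recovered for 3 days. Each of these 12 treatments has 3 libraries, named here by their replicate number (AT3_2 is replicate 2 of AT3). The labels call them replicates, and the study describes them as biological, without saying whether each is 1 plant or a pool.

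Chilling slows membrane and chloroplast function in rice, a plant of warm climates. It sets off a calcium and hormone-linked signal that reaches transcription factors of several families, among them the DREB/CBF regulators, within hours. Later in the cold, plants are known to adjust sugars, antioxidant enzymes, membrane lipids and protective proteins, and much of this is reversed when warmth returns. RNA from whole aerial parts pools all these cells, so a change in a cell type's share and a change in its RNA per cell cannot be told apart.

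Depth ranged from 10176660 counts in BT1_3, the shallowest library, to 18789555, and the next above BT1_3 had 14412904. One disagreement with the labels touches the choice of genes. It concerns 78 marker genes whose levels separate the cultivars in the CK, T1 and T1H1 libraries. In the libraries labelled AT3 and AT3H1, 82.1% to 96.2% of these genes lay on the DC907 side of the midpoint between the cultivars. In the DC907 libraries the share was 68.9% to 98.7%, and in the other 9311 libraries 5.81% to 29.5%, the T1H1, T1 and CK libraries being read on markers chosen without their own treatment. None of the 78 genes is in the list. AT3 and AT3H1 are therefore called by their labels here, and the contrast of AT3 with BT3 is not read as a contrast of cultivars. The library correlation within AT3 was 0.806 to 0.961 and that between AT3 and BT3 was 0.782 to 0.934. When the score used BT3 alone and left out the libraries labelled AT3 and AT3H1, 30 of the 150 genes stayed among the 150 highest.

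The level of the 150 genes was low without cold, intermediate on the first cold day and highest on the third. The median over the genes of the treatment mean was 1.92 FPKM in ACK and 1.69 in BCK, 6.44 in AT1 and 5.35 in BT1, and 26.7 in AT3 and 27.3 in BT3. After return to room temperature it was 4.62 in AT3H1, 2.41 in BT3H1 and 2.38 in BT3H3. The medians of the single libraries were 15.1 to 35.6 FPKM in the 6 libraries of the third cold day and 0.780 to 8.30 in the other 30, without overlap, as the choice of genes favours. The genes together took 1.01% to 1.54% of all counts in those 6 libraries and 0.0962% to 0.504% in the others.

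**Figure D1:**
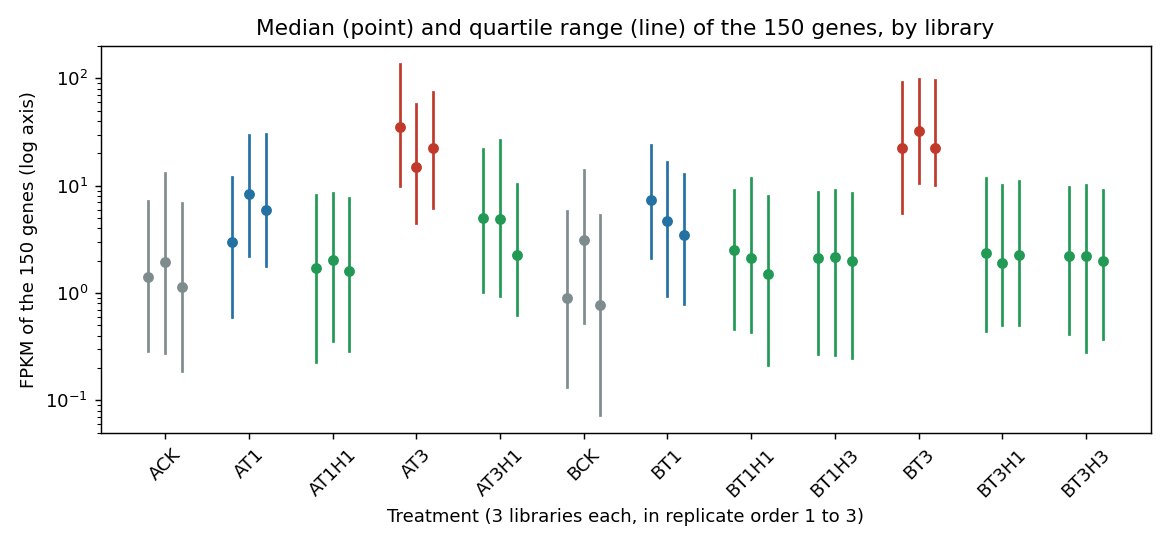
Median (point) and quartile range (line) of the FPKM of the 150 genes in each of the 36 libraries, on a log axis, with controls in grey, the first cold day in blue, the third cold day in red and recovery in green. The 6 red medians lie between 15.1 and 35.6 FPKM and the other 30 between 0.780 and 8.30.

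The scores ran from 0.88 to 2.76 with a median of 1.14. The lower third-day mean was 1.85 to 10.4 times the next highest treatment mean, with a median of 2.51 times. The treatment in second place was a day-1 cold treatment for most genes, AT1 for 58 and BT1 for 30, and AT3H1 was second for 33. BCK, BT3H3 and BT1H1 were second for 6 genes each, ACK, AT1H1 and BT1H3 for 3 each, and BT3H1 for 2. The second-place mean was under 1 FPKM for 17 genes, from 1 to under 10 for 64 and at least 10 for 69, of which 14 reached 100. The list thus holds both genes that were near 0 in every other treatment and genes that were well expressed in at least 1 other treatment.

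**Figure D2:**
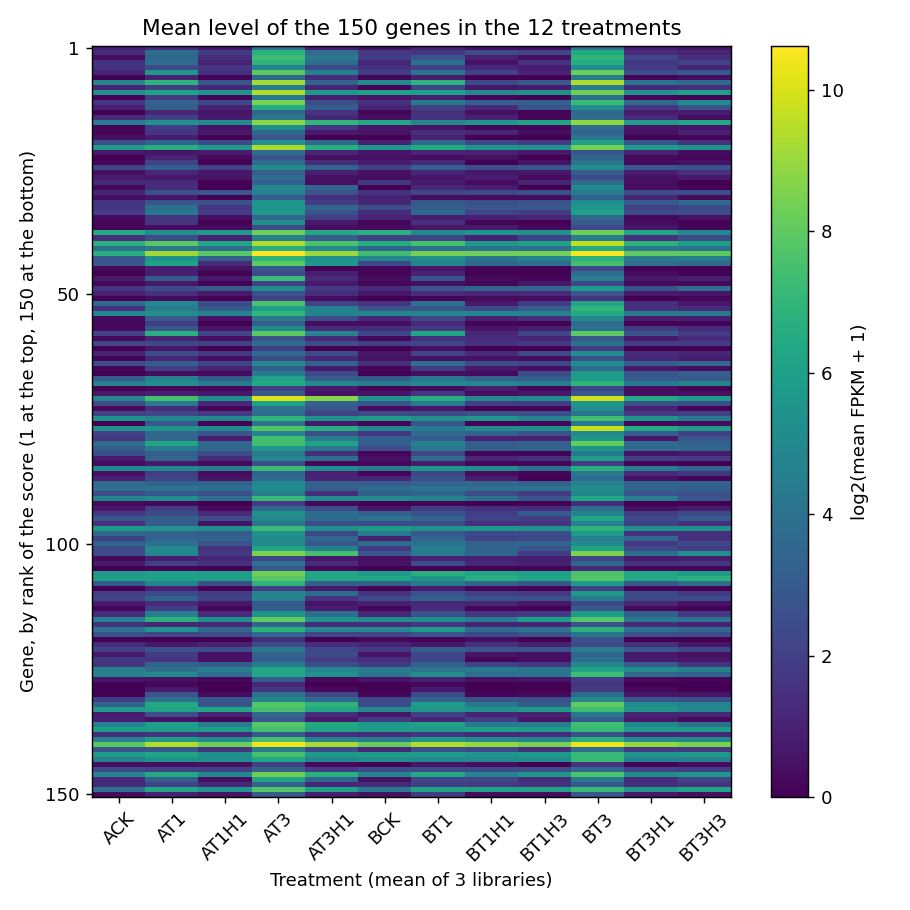
Mean level, as log2(FPKM + 1), of the 150 genes (rows, by rank of the score) in the 12 treatments (columns, means of 3 libraries). The AT3 and BT3 columns are brightest by the choice of the genes, and AT1, BT1 and AT3H1, second for 58, 30 and 33 genes, come next.

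In 45 of the 150 genes all 6 third-day libraries were above all 30 others. Over the 26408 annotated genes with at least 1 FPKM in a library the same held for 0.602%, a figure given for scale only, since the score chose on the same values. In 21 genes exactly 1 other library exceeded the lowest third-day library, and in 42 genes more than 5 did. AT3_2 was the lowest third-day library for 72 genes, BT3_1 for 32, AT3_3 for 19, AT3_1 for 12, BT3_3 for 8 and BT3_2 for 7. Where the groups overlapped, the highest other library was most often AT3H1_1 (19 genes), AT1_2 (17), BT1_1 (15) or AT1_3 (14).

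No gene of the list had a name or position in the reference table used here, which is of japonica rice: 0 identifiers matched. The genes are therefore given by their identifiers and no function is assigned to them. Their FPKM imply lengths that are all multiples of 3, so the lengths are coding lengths. These ran from 159 bases in BGIOSGA008164 to 6297 in BGIOSGA013544, with a median of 712.5 against 1036.5 over the 26408 expressed genes. In all, 61 genes (40.7%) were under 600 bases, against 24.9% of expressed genes.

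The highest score, 2.76, belonged to BGIOSGA012261 (coding length 411 bases). It measured 4.24, 42.5 and 2.48 FPKM in AT3 and 4.07, 32.1 and 14.1 in BT3, and its highest value among the other 30 libraries was 1.90. All 6 third-day libraries were thus above the rest, but 1 library in each treatment carried most of the sum. Its highest count elsewhere was 13.

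BGIOSGA009084 was high in absolute level as well. Its FPKM was 793, 274 and 652 in AT3 and 605, 863 and 472 in BT3. In the controls it was 5.75, 36.7 and 49.03 (ACK) and 34.8, 38.7 and 23.0 (BCK). On the first cold day it spread widely, with 37.6, 195 and 124 in AT1 and 232, 115 and 15.4 in BT1. No library outside the third day reached its lowest third-day value. After BT1 the values fell to between 3.48 and 4.47 in BT1H1, below all 3 BCK libraries.

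BGIOSGA029758 stayed apart from the rest although it was expressed throughout. It measured 391, 927 and 685 FPKM in AT3 and 249, 398 and 319 in BT3, and the highest other library was BCK_2 with 153. BGIOSGA012275 also stayed apart, with 610, 496 and 768 in AT3 and 253, 499 and 251 in BT3 against at most 139 elsewhere, in AT1_2.

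BGIOSGA004540, BGIOSGA015920, BGIOSGA005783 and BGIOSGA006758, ranked between 2 and 6, shared another pattern. BGIOSGA004540 measured 296, 2.33 and 31.5 FPKM in AT3 and 104, 56.9 and 99.8 in BT3. BGIOSGA015920 measured 205, 20.8 and 233 in AT3 and 98.2, 130 and 123 in BT3. BGIOSGA005783 measured 181, 8.57 and 155 in AT3 and 90.1, 88.4 and 106 in BT3. In each of them AT3_2 was far below the other 5 third-day libraries. For BGIOSGA004540 15 other libraries exceeded AT3_2, among them AT3H1_2 with 22.6 and AT1_3 with 20.0. BGIOSGA006758 followed with 422, 13.2 and 296 in AT3 and 192, 422 and 277 in BT3, and 7 other libraries exceeded AT3_2.

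Several high-ranked genes had the reverse order within AT3. BGIOSGA030996 measured 67.8, 983 and 18.2 FPKM in AT3 and 52.1, 262 and 131 in BT3. BGIOSGA030886 measured 2.85, 13.5 and 1.36 in AT3 and 3.53, 29.8 and 18.9 in BT3. BGIOSGA030995 measured 9.82, 22.6 and 4.68 in AT3 and 3.53, 27.6 and 16.6 in BT3. All 3 genes were highest in AT3_2 and in BT3_2. They share a coding length of 423 bases, and whether they share sequence or reads was not tested. BGIOSGA031124 was also highest in AT3_2 and in BT3_2, with 2.84, 28.9 and 5.59 in AT3 and 2.61, 9.44 and 6.20 in BT3. Its highest other library was BT1_3 with 2.78.

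**Figure D3:**
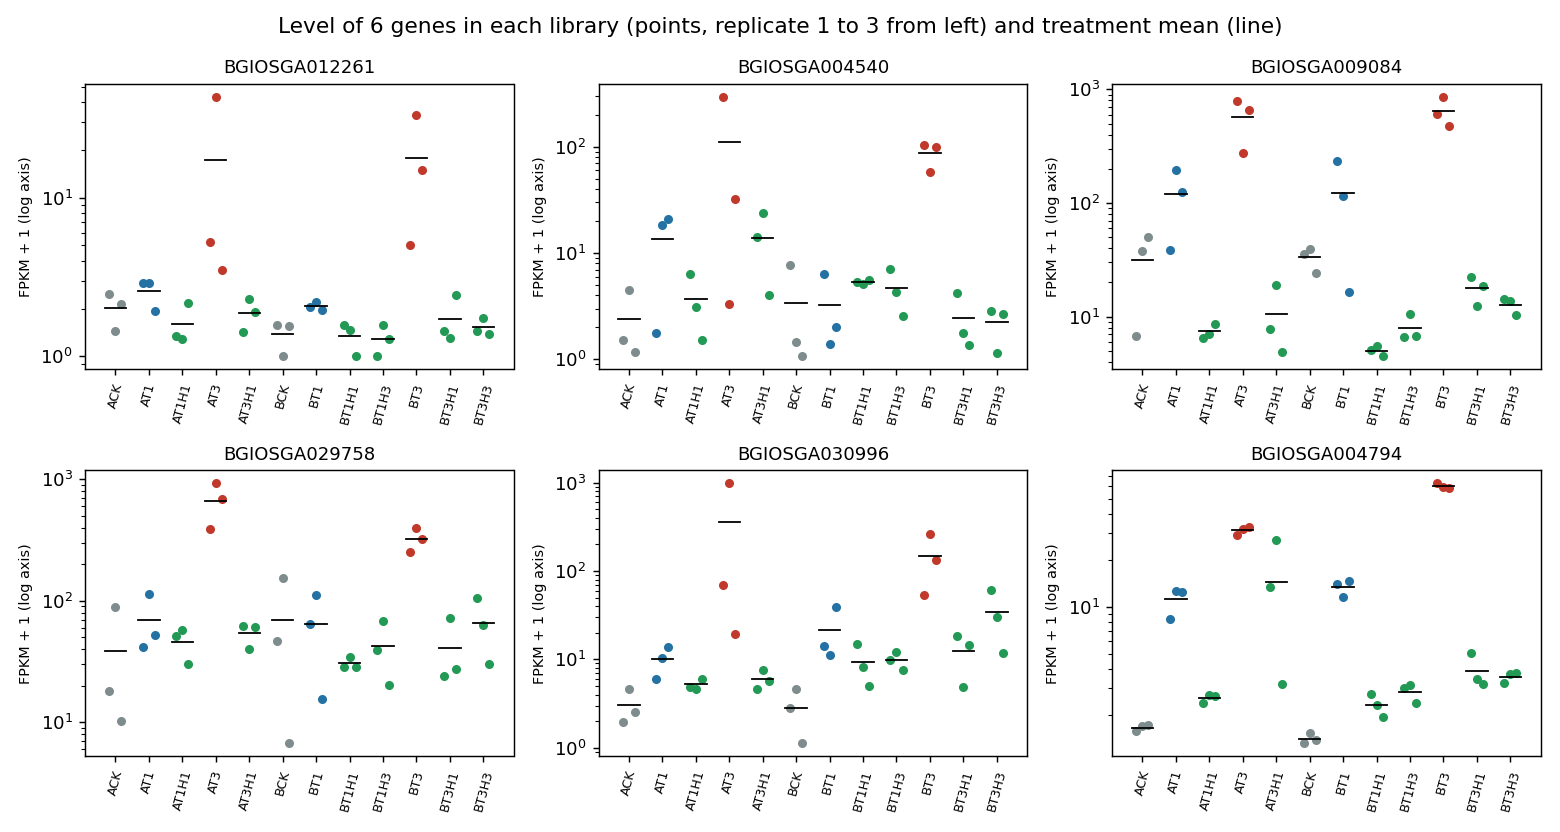
FPKM + 1, on a log axis, of 6 genes in every library (points, replicates 1 to 3 from left to right) with the treatment mean as a line. BGIOSGA012261 and BGIOSGA030996 are highest in AT3_2 and BT3_2, BGIOSGA004540 is lowest on the third day in AT3_2 (2.33 FPKM), and BGIOSGA009084, BGIOSGA029758 and BGIOSGA004794 have all red points above the rest.

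Among the other genes of the first 25, several were near 0 outside the cold. BGIOSGA022653 was listed at 0 in all 3 ACK libraries and measured 25.9, 0.439 and 29.3 FPKM in AT3 and 8.76, 18.9 and 14.4 in BT3. BGIOSGA030453, also listed at 0 in ACK, measured 13.8, 1.80 and 16.6 in AT3 and 8.62, 13.7 and 12.3 in BT3. BGIOSGA006286 measured 22.05, 0.613 and 10.6 in AT3 and 18.1, 32.4 and 14.3 in BT3, with AT3H1_2 at 3.97. For these genes too AT3_2 was the low third-day library. BGIOSGA015096 (40.7, 1.27 and 72.2 in AT3), BGIOSGA018829 (41.8, 1.90 and 18.8), BGIOSGA022494 (22.9, 1.07 and 8.72) and BGIOSGA016857 (13.5, 1.18 and 1.80) had AT3_2 lowest as well. BGIOSGA016941 (54.3, 11.4 and 13.4 in AT3, 26.0, 51.7 and 23.2 in BT3) and BGIOSGA006477 (26.0, 7.33 and 18.5 in AT3, 12.4, 12.6 and 15.4 in BT3) kept all 6 libraries above the rest.

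The remaining 4 of the first 25 overlapped with libraries of other treatments. BGIOSGA008888 measured 465, 173 and 724 FPKM in AT3 and 397, 570 and 420 in BT3, and both AT3H1_1 (221) and BCK_2 (205) exceeded AT3_2. BGIOSGA009392 measured 78.4, 142 and 61.3 in AT3 but 14.2, 64.5 and 29.5 in BT3, and AT3H1_1 with 17.5 exceeded BT3_1. BGIOSGA004606 (71.9, 8.53 and 42.3 in AT3, 69.0, 77.8 and 65.9 in BT3) was exceeded in AT3_2 by 6 other libraries. BGIOSGA037029 (39.6, 10.5 and 44.7 in AT3, 18.5, 60.1 and 33.9 in BT3) was exceeded there by AT3H1_1 and AT1_2.

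The most abundant genes of the list were expressed in every library. BGIOSGA033357 measured 1562, 670 and 2502 FPKM in AT3 and 1059, 1866 and 1541 in BT3, against 24.2 to 692 elsewhere. BGIOSGA013429 was the most even, with 1308, 1445 and 1180 in AT3 and 1260, 1431 and 1175 in BT3, against at most 759 in BT1_2. BGIOSGA013752 measured 1488, 136 and 1480 in AT3 and 727, 1237 and 838 in BT3. BGIOSGA013692 measured 767, 378 and 815 in AT3 and 819, 725 and 774 in BT3, and AT1_2 with 377 came just below AT3_2. The groups did not overlap for BGIOSGA013692 and BGIOSGA013429, and they did for BGIOSGA033357 and BGIOSGA013752, where AT3H1_1 and AT3H1_2 reached 692 and 628.

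Agreement between replicates on the third cold day was uneven. The median coefficient of variation over the 150 genes was 67.8% in AT3 and 28.7% in BT3. Over the annotated genes with a mean of at least 1 FPKM in that treatment it was 48.5% and 27.8%. In 19 genes a single AT3 library held over 80% of the AT3 sum, and in BT3 this was so for 1 gene. AT3_2 was the lowest AT3 library for 56.7% of the 150 genes, against 37.2% of the 26408 expressed genes. It was the highest for 45 genes, or 30%, against 46.2% of expressed genes. Across the 150 genes the Spearman correlation was 0.88 between AT3_1 and AT3_3, but 0.57 and 0.67 between AT3_2 and these. The pairs of BT3 libraries had 0.84 to 0.95. BT3_2 was the highest BT3 library for 27 of the 45 genes highest in AT3_2, for 50 of the 85 lowest there and for 91 of all 150, so these shares were alike. These correlations run across genes, which are not independent replicates.

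**Figure D4:**
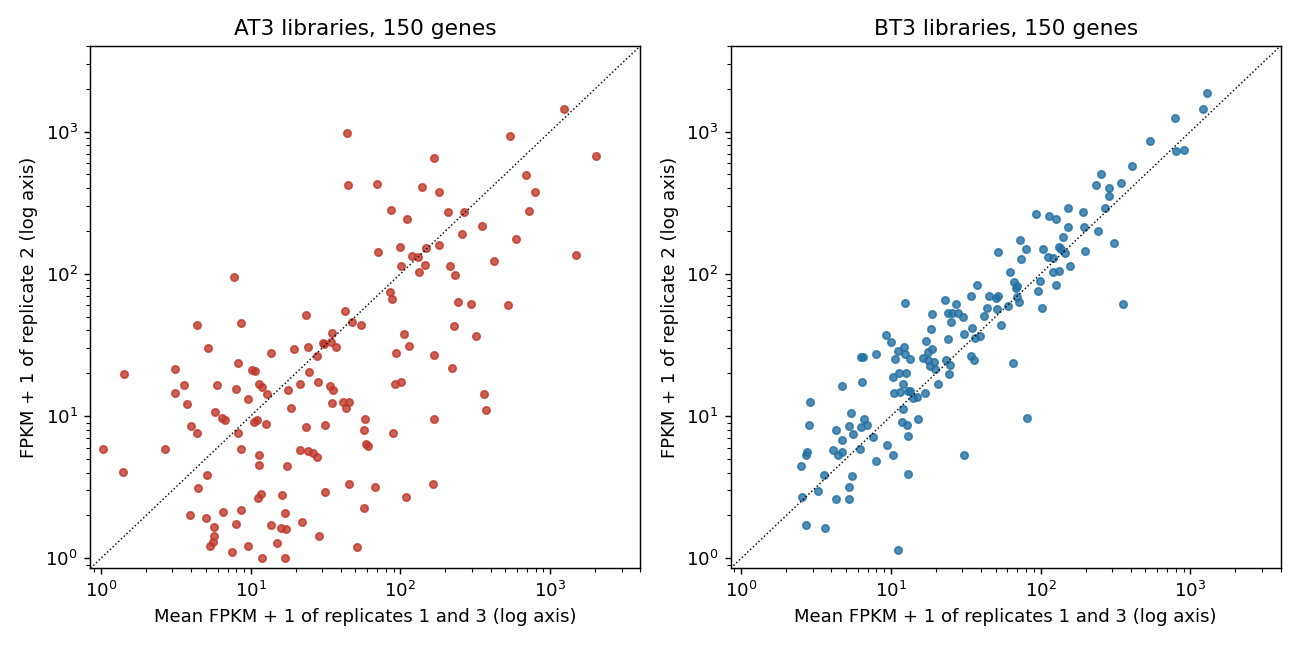
FPKM + 1 of replicate 2 against the mean FPKM + 1 of replicates 1 and 3 for the 150 genes, on log axes, in AT3 (left) and BT3 (right), with a dotted line of equality. AT3_2 was the lowest AT3 library for 85 genes and the highest for 45, and the BT3 points lie closer to the line.

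Replicates left out of the choice were compared next. With genes chosen on replicates 1 and 2 of all treatments, both third-day libraries of replicate 3 were above the 10 other libraries of that number in 113 of 150 genes (75.3%), against 7.15% of expressed genes. With replicate 1 left out this held for 81 genes (54.0%, against 4.26%), and with replicate 2 left out for 42 (28.0%, against 7.38%). The median score in the left-out replicate was 0.17 for replicate 1, -0.80 for replicate 2 and 0.52 for replicate 3, against -1.69, -1.43 and -1.49 over expressed genes. Genes chosen without replicate 2 thus mostly did not have their highest values in both AT3_2 and BT3_2. These lists share 87, 85 and 110 genes with the list described here.

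Membership also depended on the form of the score. Over 18 other versions of the choice (other pseudocounts, medians, rescaled values, libraries or treatments left out), 9 genes stayed in every version, 88 stayed in at least 12 and 2 stayed in fewer than 6. The 9 genes were BGIOSGA015920, BGIOSGA005783, BGIOSGA016941, BGIOSGA006758, BGIOSGA009084, BGIOSGA018829, BGIOSGA029758, BGIOSGA008888 and BGIOSGA004606. Just inside the limit were BGIOSGA026873 (score 0.882), BGIOSGA020389 (0.880) and BGIOSGA021896 (0.879). Just outside were BGIOSGA009665 (0.876), BGIOSGA023242 (0.876) and BGIOSGA012333 (0.874), the last with means of 1132 FPKM in AT3 and 1930 in BT3.

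The first cold day was then tested against the control of each cultivar, since the choice set only a ceiling on these treatments and not their order. The test was edgeR's quasi-likelihood test on the raw counts over all genes, and a call is a Benjamini-Hochberg adjusted p under 0.05. In 9311, 43 of the 150 genes rose in AT1 over ACK and 0 fell. Of the 150, 106 passed the filter on low counts, which 44 did not. Over all genes tested 16.8% rose and 13.7% fell. The median log2 fold change of the 106 was 1.88, with 99 positive, beside -0.13 over all genes. Of the 43, 7 had under 10 counts in every ACK library and so passed the filter through AT1, which makes a rise the only change they could show. Others of the 43 were under 10 in part of the ACK libraries, such as BGIOSGA031270 (1, 11 and 0 counts) and BGIOSGA023328 (6, 74 and 4). They too passed only with libraries of AT1, which favours a rise, and their number was not counted. The count of 43 rested on single libraries. It was 26 without ACK_1, 5 without ACK_3, 21 without AT1_2 and 4 without AT1_3. The study reports that a low share of the reads of AT1_3 mapped to the genome, and it kept this library. For a list of 150 genes chosen without the libraries labelled AT3 and AT3H1, 21 of the 101 tested rose.

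In DC907, 25 of the 150 genes rose in BT1 over BCK and 1 fell (edgeR adjusted p under 0.05), with 108 passing the filter. Over all genes 13% rose and 9.81% fell. Of the 25, 5 had under 10 counts in every BCK library and so could show only a rise. Others of the 25 were under 10 in part of the BCK libraries, such as BGIOSGA017212 with 2, 14 and 4 counts. They too passed the filter only with libraries of BT1, which favours a rise, and their number was not counted. The median log2 fold change of the 108 was 1.35, with 93 positive, beside -0.05 over all genes. Without BCK_1 a total of 14 genes passed the test, without BCK_3 8, without BT1_1 2 and without BT1_2 1. The list chosen without the libraries labelled AT3 and AT3H1 gave 16 of 101 tested. Control libraries were themselves uneven in these genes, with medians of 1.40, 1.96 and 1.14 FPKM in ACK_1 to ACK_3 and 0.902, 3.13 and 0.780 in BCK_1 to BCK_3, and the part of this in the counts was not tested beyond leaving each out.

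BGIOSGA004794 (coding length 1284 bases) rose on day 1 in both cultivars. Its FPKM was 0.573, 0.695 and 0.722 in ACK and 0.323, 0.524 and 0.391 in BCK. It rose to 7.40, 11.7 and 11.5 in AT1 and to 13.1, 10.6 and 13.8 in BT1. The log2 fold change was 4.38 (SE 0.39, edgeR adjusted p = 0.0042) in 9311 and 5.06 (SE 0.41, edgeR adjusted p = 0.0065) in DC907. Both calls held with any library left out. In BCK it had 7, 11 and 9 counts, so in DC907 it passed the filter only with libraries of BT1, which favours a rise. On the third day it measured 28.0, 31.0 and 31.9 in AT3 and 61.7, 58.7 and 57.9 in BT3, so that BT3 lay entirely above AT3.

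BGIOSGA013544, the longest gene of the list, went from 1, 8 and 4 counts in ACK to 501, 1022 and 556 in AT1. Its log2 fold change was 7.68 (SE 0.68, edgeR adjusted p = 0.0042). With under 10 counts in every ACK library it passed the filter through AT1 and could show only a rise there. In DC907 it went from 15, 16 and 1 counts in BCK to 1097, 641 and 85 in BT1, a log2 fold change of 6.05 (SE 1.15, edgeR adjusted p = 0.0163). On the third day it reached 14.3 to 22.1 FPKM in all 6 libraries. In recovery from the long cold it was at 0.0790 to 0.876 FPKM in AT3H1, BT3H1 and BT3H3. In AT3H1 it was still above ACK, with a log2 fold change of 4.05 (SE 0.88, edgeR adjusted p = 0.0349). There too it passed the filter through AT3H1 and could show only a rise. In BT3H1 and BT3H3 its difference from BCK did not pass the test.

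BGIOSGA006758 rose from 0.861 to 1.21 FPKM in ACK to 20.9, 37.9 and 83.4 in AT1, a log2 fold change of 5.99 (SE 0.64, edgeR adjusted p = 0.0048). In DC907 it rose from 0.880, 6.42 and 0.985 to 23.5, 11.7 and 14.1, a log2 fold change of 2.86 (SE 0.77, edgeR adjusted p = 0.0389). BGIOSGA031138 rose in BT1 by 3.17 on the log2 scale (SE 0.50, edgeR adjusted p = 0.0118), from 0.314 to 0.715 FPKM in BCK to 2.99 to 4.49 in BT1. BGIOSGA016494 rose in BT1 by 3.94 (SE 0.68, edgeR adjusted p = 0.0135), from 3.35, 8.56 and 1.55 to 52.9, 85.3 and 35.4. The libraries of BT1 and BCK did not overlap for any of these 3 genes. Among the 6 fits that omit a library, the call of BGIOSGA031138 held in 5 and that of BGIOSGA016494 in 4.

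BGIOSGA026240 went the other way on day 1 and was the only gene of the list that fell in BT1. It measured 77.4, 147 and 106 FPKM in BCK and 35.1, 21.0 and 37.1 in BT1, a log2 fold change of -1.66 (SE 0.33, edgeR adjusted p = 0.0179). In 9311 the log2 difference was -0.88 (SE 0.48, edgeR adjusted p = 0.196), which did not pass the test. The call in DC907 held in 4 of the 6 fits that leave out a library. On the third day it stood at 340, 216 and 362 in AT3 and 288, 350 and 286 in BT3, above every other library. Its level was thus lower than the control on the first cold day in DC907 and higher on the third.

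Of the 102 genes tested in both cultivars on day 1, 14 rose in both (13.7%, against 9.86% of the 22108 genes tested in both), 26 rose in 9311 alone and 9 in DC907 alone. None changed in opposite directions with both calls, and 86 had a positive change in both. Apart from the genes that rose in both, these counts were not made over all genes, so nothing is read from them about the list. In the separate contrasts 46.8% of all genes tested had a positive change in AT1 and 48.5% in BT1. A call in one cultivar and not in the other does not show a difference, so the difference of the changes was tested as an interaction. It passed for 0 of the 128 genes tested (edgeR adjusted p under 0.05), beside 0.00403% of all genes upward and 0% downward. At an unadjusted p under 0.05 there were 6 of 128, beside 1050 of 24831 genes in all, and DESeq2 called 1 of 139, beside 39 of 26217. The log2 changes in the cultivars had a Pearson correlation of 0.62 and a Spearman correlation of 0.61 across the 102 genes, against a Pearson correlation of 0.80 over all genes. No p is given since genes are not replicates.

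**Figure D5:**
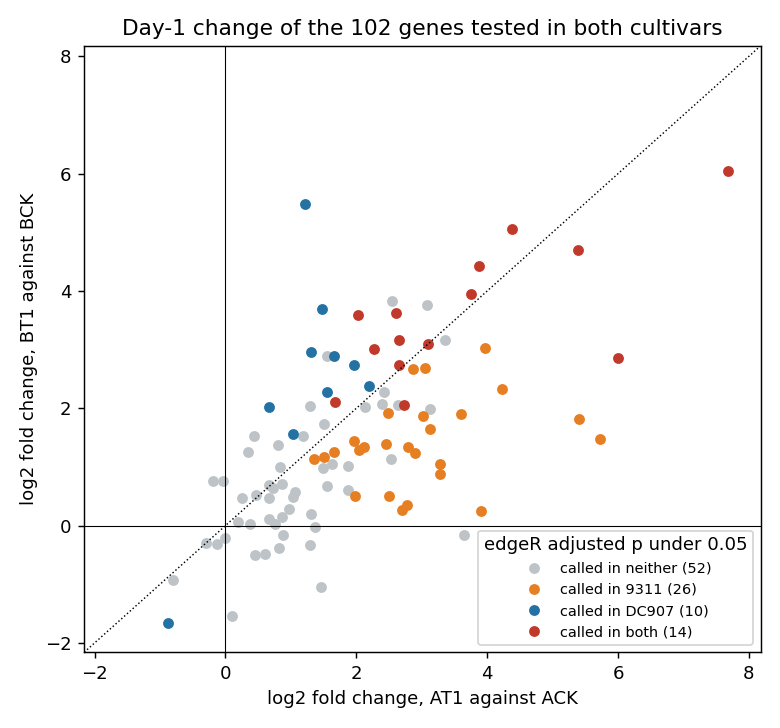
Log2 fold change on the first cold day in 9311 (AT1 against ACK, horizontal) and DC907 (BT1 against BCK, vertical) of the 102 genes tested in both, coloured by which edgeR calls passed, with a dotted line of equality. Most points, 86 of 102, lie above and to the right of 0, a count that was not made over all genes. BGIOSGA013544 is the one farthest right at 7.68.

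All 150 genes are high on the third day by the choice, so their division by day-1 calls is given as a description. Over all 150 genes, 14 rose in both, 29 in 9311 without a call in DC907 and 11 in DC907 without a call in 9311. The other 96 were not called as rising in either. In all, 48 of the 150 were not tested in at least 1 cultivar, and the 96 include such genes. The filter on low counts thus enters this division and its medians. The median of the treatment means of these 96 was 1.39 FPKM in ACK, 3.18 in AT1 and 17.4 in AT3, and 1.55 in BCK, 3.53 in BT1 and 17.1 in BT3. The medians of the 14 were 1.54 in ACK, 9.68 in AT1 and 47.9 in AT3, and 1.29 in BCK, 11.9 in BT1 and 51.6 in BT3.

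On the third day itself, AT3 had the higher mean for 78 genes and BT3 for 72, and the log2 ratio of BT3 to AT3, with 1 FPKM added to each mean, ran from -2.75 to 1.98 with a median of -0.03. The score takes the lower of these means and so favours genes in which they are alike, and nothing is read from the following counts about the list. In edgeR 0 of 149 genes of the list and 0% of all genes had an adjusted p under 0.05, and 13 of the list and 4108 of 22501 genes had an unadjusted p under 0.05. DESeq2 called 2 of 146 and 2246 of 25580. The cultivar of the AT3 libraries is in doubt.

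The gene with the largest such ratio of BT3 to AT3 was BGIOSGA026730 (coding length 2100 bases). It is shown with its oligos because it is the one gene of the list among 14 for which the study designed PCR primers. Both are written 5′ to 3′.
Forward primer: actggctgctggtgctgatgtg
Reverse primer: tgctcgtcatcgttgtgcttggt
The forward primer has 22 bases and the reverse primer 23, and no position in the genome is given for them here. The gene measured 243, 59.9 and 345 FPKM in AT3 and 991, 739 and 827 in BT3, without overlap. On day 1 it was not above its control in mean in DC907, with 36.5, 15.9 and 8.19 in BT1 against 45.5, 36.1 and 9.73 in BCK. After 1 day of recovery it was 85.1, 157 and 51.6 in AT3H1 and 105, 91.2 and 70.2 in BT3H1.

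BGIOSGA017926 (18.2, 3.45 and 14.6 FPKM in AT3, 23.3, 52.1 and 30.8 in BT3), BGIOSGA033940 (9.34, 1.13 and 1.65 against 14.96, 14.0 and 8.95), BGIOSGA030886 and BGIOSGA033416 followed with log2 ratios of 1.47, 1.44, 1.41 and 1.33, again with 1 FPKM added to each mean, which lowers the ratio of genes of low level most. BGIOSGA033416 rested on 1 library, with 108, 22.8 and 21.5 in BT3 and 10.1, 43.8 and 5.03 in AT3. At the other end stood BGIOSGA013448, with 124, 278 and 47.9 in AT3 and 49.3, 4.32 and 10.6 in BT3. BGIOSGA013449, which follows it in the numbering of identifiers, measured 6.64, 94.4 and 6.75 in AT3 and 14.8, 4.30 and 3.80 in BT3. Both were highest in AT3_2 within AT3 and in BT3_1 within BT3. BGIOSGA014197 (148, 16.5 and 52.7 against 21.97, 21.4 and 12.5), BGIOSGA019730 (61.7, 420 and 24.9 against 38.6, 56.9 and 47.4) and BGIOSGA013451 (3.42, 15.5 and 1.72 against 2.51, 0.716 and 0.904) had log2 ratios on the same scale of -1.90, -1.80 and -1.73. In these 3 genes the AT3 and BT3 libraries overlapped.

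Recovery after the long cold was tested against the untreated control of the same label. These contrasts share their controls with those of day 1, so the values stand side by side and no overlap between them is given. In AT3H1, after 1 day, 10 of the 150 genes were above ACK and 0 below (edgeR adjusted p under 0.05), with 106 passing the filter. Over all genes 6.55% were above and 7.7% below. The median log2 fold change of the 106 was 1.17, with 87 positive, beside -0.11 over all genes. Of the 10, 5 had under 10 counts in every ACK library. The count was 1 without ACK_1, 22 without ACK_2, 0 without ACK_3, 0 without AT3H1_1 or AT3H1_2, and 26 without AT3H1_3. Because these libraries lay on the DC907 side of the cultivar genes, BCK was also used as the control. Then 7 of 109 genes were above and 0 below, beside 5.75% and 6.94% of all genes.

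BGIOSGA015920 measured 22.1, 23.9 and 7.15 FPKM in AT3H1 and 0.686, 0.102 and 0 in ACK, a log2 fold change of 6.16 (SE 1.20, edgeR adjusted p = 0.0301). BGIOSGA006758 measured 37.8, 24.99 and 9.71 in AT3H1, a log2 fold change over ACK of 4.76 (SE 0.72, edgeR adjusted p = 0.0248). BGIOSGA003667 measured 1.82, 1.17 and 1.00 in AT3H1 and 0.0573, 0.102 and 0.0284 in ACK, a log2 fold change of 4.49 (SE 0.73, edgeR adjusted p = 0.0255). Both BGIOSGA015920, with 6, 1 and 0 counts in ACK, and BGIOSGA003667, with 2, 4 and 1, passed the filter through AT3H1 and could show only a rise. Against AT3 the order depended on the library. All 3 genes were lower in every AT3H1 library than in AT3_1 (205, 422 and 9.84) and AT3_3 (233, 296 and 3.14). AT3_2 (20.8, 13.2 and 0.108) was exceeded by AT3H1_1 and AT3H1_2 in each gene, and by AT3H1_3 in BGIOSGA003667. With BCK as the control the smallest p belonged to BGIOSGA016494 (117, 180 and 51.1 in AT3H1, log2 fold change 4.80, SE 0.80, edgeR adjusted p = 0.0271). BGIOSGA019346 (13.4, 5.73 and 8.62, with 0 in every BCK library) and BGIOSGA003980 (7.32, 14.0 and 10.5 against 1.55, 0.959 and 0.365) were next with adjusted p of 0.0279 and 0.0307 in edgeR, and BGIOSGA019346 passed the filter through AT3H1 alone.

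In BT3H1, after 1 day of recovery in DC907, 1 of the 150 genes was above BCK and 0 below (edgeR adjusted p under 0.05), with 101 tested. Over all genes 3.54% were above and 3.87% below. At an unadjusted p under 0.05 there were 15 of 101, of which 7 were above, beside 7441 of 23155 genes in all, and DESeq2 called 14 of 123, beside 5783 of 26246. The median log2 fold change was 0.07, with 53 of 101 positive. The gene was BGIOSGA004794, with 4.05, 2.42 and 2.18 FPKM against 0.323 to 0.524 in BCK. Its log2 fold change was 2.40 (SE 0.44, edgeR adjusted p = 0.0367). With 7, 11 and 9 counts in BCK, it passed the filter only with libraries of BT3H1, which favours a rise. The number of calls was 2 without BCK_1, 10 without BCK_2, and 0 without BCK_3 or any 1 library of BT3H1. With the list chosen without the libraries labelled AT3 and AT3H1 it was 3 above and 3 below. By treatment means with 1 FPKM added, 119 of the 150 genes were within 2-fold of BCK in BT3H1, 22 were higher and 9 lower. In AT3H1 against ACK 95 were within 2-fold, 51 higher and 4 lower. The same counts were not made over expressed genes. The median log2 ratio on this scale was 0.15 for the list and 0.20 over expressed genes in BT3H1. In AT3H1 it was 0.56 and -0.08. Only 92 of the 150 genes had a mean of at least 1 FPKM in BCK, and 92 in ACK. The added 1 FPKM draws the ratios of the others toward no change, so these counts do not show a return to the control.

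After 3 days of recovery in DC907 (BT3H3), 8 of the 150 genes were above BCK and 6 below (edgeR adjusted p under 0.05), with 100 tested and 8.38% and 9.73% of all genes above and below. The median log2 fold change was -0.20, beside -0.04 over all genes. BGIOSGA004794 was still above the control with 2.23, 2.69 and 2.74 FPKM, a log2 fold change of 2.37 (SE 0.42, edgeR adjusted p = 0.0218). Here too it passed the filter only with libraries of the treatment, BT3H3. BGIOSGA020738 measured 15.5, 13.8 and 4.79 against 1.27, 1.38 and 0.880 in BCK, a log2 fold change of 2.99 (SE 0.54, edgeR adjusted p = 0.0227). BGIOSGA020389 measured 66.4, 88.4 and 62.0 against 13.0, 30.5 and 18.2, a log2 fold change of 1.59 (SE 0.30, edgeR adjusted p = 0.0236). For these genes the BT3H3 and BCK libraries did not overlap.

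Other genes of the list ended below the control. BGIOSGA026240 measured 27.8, 33.7 and 25.6 FPKM in BT3H3, a log2 fold change of -2.16 (SE 0.26, edgeR adjusted p = 0.0156). BGIOSGA017816 measured 6.13, 7.37 and 5.32 against 20.8, 55.8 and 23.5 in BCK, a log2 fold change of -2.62 (SE 0.39, edgeR adjusted p = 0.0169). BGIOSGA009084 measured 13.4, 12.6 and 9.23 against 34.8, 38.7 and 23.0, a log2 fold change of -1.72 (SE 0.30, edgeR adjusted p = 0.0211). All 3 BT3H3 values were below all 3 BCK values in each gene. The 14 calls fell to 6 without BCK_3 and to 0 without any 1 library of BT3H3, and the list chosen without the libraries labelled AT3 and AT3H1 gave 4 above and 5 below.

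Of the genes that the study's text names, 25 with a role in redox balance, sugar, hormone or polyamine metabolism, transcription or ubiquitination were looked up. None is in the list, and 4 had a score above 0. BGIOSGA029182, a monodehydroascorbate reductase that restores ascorbate, had means of 759 FPKM in AT3 and 793 in BT3 but also 493 in AT1. BGIOSGA016904, a glutathione peroxidase that removes peroxides, had 1361 and 1044 against 843 in AT1. BGIOSGA033329, a glutathione S-transferase, had 60.8 and 88.9 against 40.7 in AT3H1, and BGIOSGA012193, a glutamate decarboxylase that makes GABA, had 331 and 212 against 147 in BT1. These 4 were thus already high on day 1 or still high in recovery. Of the 23 tested, 14 rose and 2 fell in AT1 (16.8% and 13.7% of all genes), and 7 rose and 1 fell in BT1 (13% and 9.81%), by edgeR at an adjusted p under 0.05. The study chose these genes on the same samples, so the counts are not independent evidence. Of the 23 tested in recovery, 9 were above and 1 below in AT3H1 (6.55% and 7.7% of all genes). In BT3H1 1 was above and 1 below (3.54% and 3.87%), and in BT3H3 4 were above and 1 below (8.38% and 9.73%).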

How the data were processed

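RNA from aerial parts of rice seedlings was sequenced by the authors on the HiSeq platform from oligo-dT libraries. According to the methods and the submitters' processing notes, reads were filtered with the NGS QC Toolkit and mapped with HISAT2 to the Ensembl Plants release 41 indica genome, new genes were found with Cufflinks and Cuffcompare, and DESeq was used for testing. The counting program, strand setting and handling of reads with several positions are not given in the sources used here. The authors deposited raw counts per gene, and the deposited FPKM are these counts over coding length and library total. All 36 libraries were used, grouped by their labels.

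The list and the gene groups were chosen with earlier results of these data known. The named genes are the 25 highest scores, the 5 highest third-day means, the 3 smallest p per direction in each contrast, 3 genes on each side of the limit, the 5 lowest and highest ratios of BT3 to AT3 and the shortest and longest gene.

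Counts were tested with edgeR 4.0.16 in R 4.3.3 (TMM, filterByExpr, robust quasi-likelihood test, Benjamini-Hochberg over all genes), 6 libraries per fit, 12 for the interaction. Standard errors were obtained from the fold change and its F statistic. Scripts were tested on simulated counts. Other settings tried were a replicate block, leaving out each library, a log2 fold change of at least 1, DESeq2 1.42.0, other size factors (median-ratio), filters set to none or to a minimum of 10 counts throughout, and a joint fit of the 36 libraries. The list was rebuilt with pseudocounts of 0.1 and 10, medians, TMM-rescaled FPKM, a minimum of 1 FPKM, either third-day treatment alone and libraries left out. After seeing the data, the tested list was also chosen without AT3 and AT3H1. With 3 libraries a treatment, the spread between libraries limits the precision, and p-values measure that spread alone. The new genes, 2509 of 43254, could not enter the list.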

Additional observations from a re-analysis of the deposited data

Results flagged for a closer look

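The new genes that the authors assembled were outside the choice, which took annotated genes alone. By the same score, 33 of the 2509 new genes (1.32%) reached the lowest score of the list, against 0.368% of the annotated genes that form it. The highest was Novel01145 with a score of 3.57 and mean FPKM of 79.5 in AT3, 35.3 in BT3 and at most 2.06 (BT1) elsewhere. Novel01237 had a score of 2.90 and means of 118 in AT3 and 109 in BT3 against 13.7 in AT1. The scores are descriptions by the values that ranked these genes, and no test was made.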

How the results depend on the processing

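The counts of genes that passed the edgeR test kept within 1.5 times under median-ratio size factors and a log2 fold change of at least 1. Other settings moved them. With all 36 libraries in 1 fit the calls were 71 in AT1, 52 in BT1, 45 in AT3H1, 11 in BT3H1 and 1 in BT3 against AT3, and with DESeq2 69, 51, 48, 14 and 2, with 22 in BT3H3 and 1 for the cultivar difference of the day-1 change. At least 10 counts in every library gave 16 in BT1, 6 in AT3H1 and 2 in BT3H1, and no filter gave 0 in BT3H1. The list chosen without the libraries labelled AT3 and AT3H1, added after the data were seen, gave 21 in AT1, 16 in BT1, 6 in BT3H1 and 9 in BT3H3. Leaving out 1 library gave 4 to 50 calls in AT1, 1 to 33 in BT1, 0 to 26 in AT3H1, 0 to 10 in BT3H1, 0 to 20 in BT3H3 and 0 to 0 in BT3 against AT3 and in the cultivar difference. The settings differ in the genes tested and the libraries used, and the cause of these shifts was not tested. In AT1 the joint fit tested 150 genes of the list and DESeq2 143, against 106 in the main fit. The minimum of 10 counts left 77.

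With the replicate number as a block the calls were 0 in AT1, 7 in BT1, 9 in AT3H1, 0 in BT3H1, 0 in BT3H3, 0 in BT3 against AT3 and 0 in the cultivar difference. The number was taken to pair libraries where all 3 pairs of a contrast had a correlation of deviations over 0.1. No contrast met this (correlations of -0.53 to 0.36), although all 3 were positive in AT3H1 against ACK (0.06 to 0.14). With 3 libraries, leaving 1 out leaves 2, assumed to vary like the others. Scaling by library totals moved the median log2 change of all genes to -0.59 in AT1 and 0.35 in BT3H1.

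Of the 150 genes, 96 stayed with a pseudocount of 0.1 FPKM, 92 with 10, 98 with medians, 56 with BT3 alone, 45 with AT3 alone, 30 without the libraries labelled AT3 and AT3H1, 87, 85 and 110 without replicates 1, 2 and 3 of every treatment, and 107 to 144 without 1 library. Of 198 values of 17 single-gene results under alternatives, 144 kept their call, 54 lost it and 0 changed sign.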
